A study of Sus scrofa with 21 samples.

Results

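PHGDH, BHMT, KMO and SAT1 encode enzymes of serine, methionine, tryptophan and polyamine metabolism, and AHCYL1 encodes a protein that resembles a methionine-cycle enzyme. Transcripts of these 5 genes were followed in the uterine lining of the pig around implantation. All array probes whose RefSeq accession belongs to 1 of these pig genes were taken, which gave 11 probes of 43603 on the array and 5 genes of 2389 with a symbol. The genes were picked because of differences already seen between these groups, so their values are given as a description, without a test. RNA came from endometrium of Large White sows on 21 1-colour arrays, 3 in each of 7 groups. The pregnant groups were attachment sites of day 13, inter-sites of day 13, attachment sites of day 18, inter-sites of day 18, attachment sites of day 24 and inter-sites of day 24. An attachment site is endometrium where a conceptus lay, and an inter-site is the stretch between such places. The last group was non-pregnant endometrium of day 13, from sows inseminated with inactivated sperm. The labels name 3 sows a day but do not tie arrays to sows, so each p-value below rests on the spread between arrays, and sites of 1 sow could not be paired.

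Serine is built from a glycolytic intermediate, and PHGDH catalyses the first step. Serine feeds one-carbon units into the methionine cycle, where BHMT remethylates homocysteine with betaine as the donor. AHCYL1 (also called IRBIT) resembles the enzyme that hydrolyses S-adenosylhomocysteine but is known as a binding partner of the inositol trisphosphate receptor. KMO hydroxylates kynurenine, a product of tryptophan breakdown. SAT1 acetylates spermidine and spermine and so marks them for export or oxidation, while ODC1, ornithine decarboxylase, makes the first polyamine, putrescine. Polyamines and one-carbon metabolism are known to matter for the growth of the early conceptus.

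A level is the log2 of a probe's signal over the 75th percentile of its array, and levels are set side by side only within 1 probe. A difference is a log2 fold change, given with its standard error (SE), from 1 limma fit of the 21 arrays and 30089 probes. On each array 62.3% to 77.1% of probes stood well above background. Of the endometrial markers 5 of 8 were measured. The trophoblast gene CYP19A3 was well above background on the 3 day 24 attachment-site arrays and on 0 of the other 18.

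A pair of inter-site libraries stood apart from the other pregnant libraries. DKK1, a secreted WNT inhibitor, lay between 3.54 and 5.68 on the other 16 pregnant arrays, against -4.62, -5.37 and -4.62 on the non-pregnant arrays. It was -3.23 on day 13 inter-site replicate 1 and -6.13 on day 24 inter-site replicate 3. FST, which encodes follistatin, was likewise at -2.25 and -3.16 on these 2 libraries. Over all probes, day 24 inter-site replicate 3 correlated best with non-pregnant replicate 3 (r = 0.988). Both libraries were kept under their labels, and the fitted inter-site differences printed below are also given without them. The inter-site group means, ranges, overlaps and bounds keep them, as do the values with another background correction or within a slide. The columns of day 24 inter-site replicates 2 and 3 in the authors' deposited table each matched the other's scanner file best, and the replicate number used is that of the scanner file.

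PHGDH was highest at day 13 attachment sites. Its representative probe, A_72_P440266 (NM_001123162), read 2.84, 3.46 and 2.92 there, against 0, 0.23 and 1.04 in non-pregnant endometrium. All attachment-site arrays lay above all non-pregnant arrays. The fitted difference was 2.65 (SE 0.58), or 6.26-fold. Inter-sites of day 13 read 0.46, 1.77 and 2.41, and the lowest of these, replicate 1, is the library with low DKK1 and lay within the non-pregnant range. The difference of these inter-sites over non-pregnant endometrium was 1.12 (SE 0.58) with that library and 1.67 (SE 0.59) without both low-DKK1 libraries. Attachment sites exceeded inter-sites on day 13 by 1.52 (SE 0.58), and by 0.98 (SE 0.59) without those libraries. On this probe the site types did not overlap, but on the other PHGDH probe they did (1.15, SE 0.53).

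On day 18, PHGDH read -0.21, -0.5 and 1.68 at attachment sites, against the 3 day 13 values of 2.84 and above. The difference was -2.74 (SE 0.58), 6.7-fold lower on day 18. Replicate 3 lay apart from the other day 18 attachment-site arrays, and without 1 array at a time the difference ranged from -3.42 to -2.33. Inter-sites of day 18 read 1.45, 0.19 and 1.89 and overlapped the day 13 inter-sites, with a difference of -0.37 (SE 0.58), or -0.91 (SE 0.59) without the low-DKK1 libraries. With slide as a block the same difference was 0.27 (SE 0.67), and without 1 array at a time it ran from -0.91 to 0.12, so its sign was not settled. By day 24 the gene was at -0.49, -0.96 and -0.21 at attachment sites and at -0.15, -0.53 and 0.54 at inter-sites. In order of mean level, day 13 attachment sites (3.07 ± 0.34, SD, n = 3 here and below) were followed by inter-sites of day 13 (1.55 ± 0.99), inter-sites of day 18 (1.18 ± 0.88) and non-pregnant endometrium (0.42 ± 0.55). Attachment sites of day 18 (0.33 ± 1.18), inter-sites of day 24 (-0.05 ± 0.54) and attachment sites of day 24 (-0.55 ± 0.38) came last. On this probe, every neighbouring pair in this order overlapped apart from the step below day 13 attachment sites.

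SAT1, the acetyltransferase that sets the pace of polyamine breakdown, gave the same order at its upper end. Its representative probe, A_72_P077626 (NM_214358), read 8.11, 8.39 and 8.46 at day 13 attachment sites, against 6.42, 6.74 and 7.01 in non-pregnant endometrium. The groups did not overlap, and the difference was 1.6 (SE 0.34), or 3.02-fold. Day 13 inter-sites read 6.94, 7.94 and 8.16, with replicate 1 again inside the non-pregnant range. Their difference over non-pregnant endometrium was 0.96 (SE 0.34), and 1.33 (SE 0.34) without the low-DKK1 libraries. Between the sites on day 13 the difference was 0.64 (SE 0.34), with overlap, and 0.27 (SE 0.34) without those libraries.

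At day 18 attachment sites SAT1 read 6.58, 6.37 and 7.82, all below the day 13 arrays, with a difference of -1.4 (SE 0.34), 2.63-fold lower. Replicate 3, the array that was also high for PHGDH, was the highest. Inter-sites of day 18 were tight, at 7.45, 7.29 and 7.25. On day 24 SAT1 read 6.38, 6.37 and 5.98 at attachment sites, against 6.75, 7 and 6.79 at inter-sites. The day 24 sites did not overlap, and the fitted difference was -0.61 (SE 0.34), or -0.63 (SE 0.34) without the low-DKK1 libraries. Mean levels ran from day 13 attachment sites (8.32 ± 0.18) through inter-sites of day 13 (7.68 ± 0.65), inter-sites of day 18 (7.33 ± 0.11), attachment sites of day 18 (6.92 ± 0.78), inter-sites of day 24 (6.85 ± 0.13) and non-pregnant endometrium (6.72 ± 0.29) to attachment sites of day 24 (6.24 ± 0.23). Only the last step, below non-pregnant endometrium, separated neighbours without overlap.

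**Figure D1:**
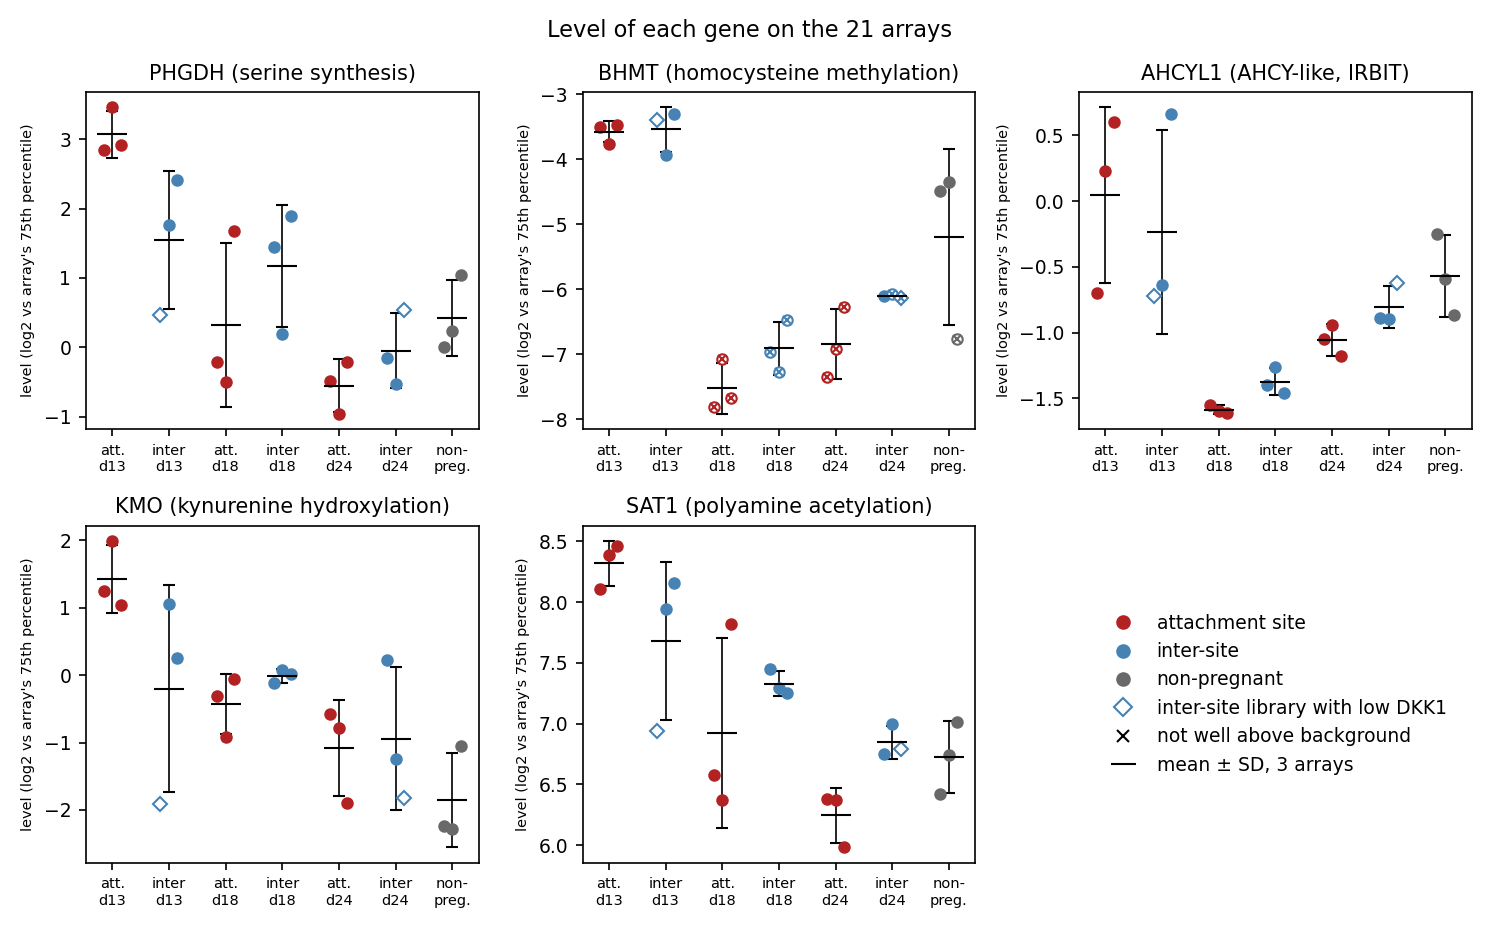
Level of PHGDH, BHMT, AHCYL1, KMO and SAT1 on each of the 21 arrays by group, as log2 signal over the array's 75th percentile; bars are the mean ± SD of 3 arrays, open diamonds are the inter-site libraries with low DKK1, and crosses mark arrays where the probe did not clear background. Day 13 attachment sites have the highest mean for PHGDH, AHCYL1, KMO and SAT1, while BHMT is high on all 6 pregnant day 13 arrays. For AHCYL1, KMO and SAT1 they overlap day 13 inter-sites.

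KMO, the kynurenine hydroxylase, was higher at day 13 attachment sites than in non-pregnant endometrium. Probe A_72_P146821 (NM_214076) read 1.24, 1.99 and 1.04 at day 13 attachment sites, against -2.24, -2.28 and -1.05 in non-pregnant endometrium. No arrays overlapped, and the difference was 3.28 (SE 0.64), or 9.71-fold. The day 13 inter-sites spread over -1.91, 1.05 and 0.26, with the low-DKK1 library in the non-pregnant range and the other 2 above it. Their difference over non-pregnant endometrium was 1.66 (SE 0.64), and 2.51 (SE 0.51) without the low-DKK1 libraries. Attachment sites exceeded inter-sites on day 13 by 1.62 (SE 0.64), with overlap, and by 0.77 (SE 0.51) without them. The highest day 13 inter-site array (1.05) lay just above the lowest attachment-site array (1.04).

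On later days KMO lay below its day 13 attachment-site level. On day 18 it read -0.31, -0.92 and -0.06 at attachment sites, all below the day 13 arrays, with a difference of -1.85 (SE 0.64). Inter-sites of day 18 read -0.12, 0.07 and 0.01, and their difference over day 13 inter-sites was 0.19 (SE 0.64) with all arrays but -0.67 (SE 0.51) without the low-DKK1 libraries. On day 24 the gene read -0.57, -0.79 and -1.89 at attachment sites and 0.23, -1.24 and -1.82 at inter-sites, the last of these being the low-DKK1 library. In order of mean level, day 13 attachment sites (1.42 ± 0.5) stood clear of inter-sites of day 18 (-0.01 ± 0.1), which came next. The day 13 attachment sites did overlap inter-sites of day 13 (-0.2 ± 1.53), further down the order. All later neighbours overlapped, down to non-pregnant endometrium (-1.86 ± 0.7).

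BHMT was dim, and it was brightest on the pregnant arrays of day 13. Its only probe, A_72_P444056 (NM_001200042), was well above background on 9 of 21 arrays, among them all 6 pregnant day 13 arrays. It read -3.5, -3.76 and -3.47 at day 13 attachment sites and -3.39, -3.93 and -3.3 at inter-sites, against -4.48, -4.35 and -6.76 in non-pregnant endometrium. Non-pregnant replicate 3 was not well above background. The difference was 1.62 (SE 0.47) at attachment sites and 1.66 (SE 0.47) at inter-sites, with all pregnant arrays above the non-pregnant ones. It was 0.83 and 0.87 without non-pregnant replicate 3, and at inter-sites 1.58 (SE 0.56) without the low-DKK1 libraries. With normexp background correction, the sign at attachment sites turned (-0.19, SE 0.52), and at inter-sites the difference was 0.33 (SE 0.52). The low-DKK1 library of day 13 read -3.39, at the level of the other day 13 pregnant arrays for this gene.

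After day 13 the BHMT probe cleared background on 0 of 6 attachment-site arrays. At day 18 attachment sites it measured -7.82, -7.08 and -7.68, for a mean of -7.52 against -3.58 on day 13. Since the lower group is under background, the ratio is a bound taken against the dimmest probes still above background, and BHMT was at least 3.62-fold lower on day 18. At day 18 inter-sites it measured -6.97, -7.28 and -6.48, at least 3.76-fold lower than on day 13. These bounds hold for the processed signal. With normexp correction the fitted log2 differences were -0.67 at attachment sites and -1.38 at inter-sites (SE 0.52 each), smaller than the bounds, so the size depends on the background correction. On day 24, only inter-site replicate 1 was well above background. In order of mean level the day 13 inter-sites and attachment sites (-3.54 ± 0.34 and -3.58 ± 0.16) overlapped and stood clear of non-pregnant endometrium (-5.2 ± 1.36).

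AHCYL1 was lowest on day 18 at both site types. Probe A_72_P531776 (NM_001201381) read -0.7, 0.23 and 0.6 at day 13 attachment sites, against -0.25, -0.59 and -0.87 in non-pregnant endometrium, with overlap and a difference of 0.61 (SE 0.33). Inter-sites of day 13 read -0.72, -0.64 and 0.66. On day 18 the gene was tight and low, at -1.55, -1.6 and -1.61 at attachment sites and at -1.4, -1.26 and -1.46 at inter-sites. All day 18 arrays lay below all day 13 arrays at each site type, with differences of -1.63 (SE 0.33) at attachment sites and -1.14 (SE 0.33) at inter-sites, or -1.38 (SE 0.36) there without the low-DKK1 libraries. The inter-site difference was smaller with slide as a block (-0.57, SE 0.33), and without 1 array at a time it ran from -1.38 to -0.69. On day 24 AHCYL1 read -1.05, -0.94 and -1.18 at attachment sites and -0.89, -0.9 and -0.62 at inter-sites. The day 24 differences over day 18 were 0.53 and 0.57 (SE 0.33 each), with no overlap at either site type, and the inter-site value was 0.48 (SE 0.36) without those libraries. By mean level, day 13 attachment sites, day 13 inter-sites, non-pregnant endometrium and day 24 inter-sites each overlapped the next, and the steps below, to day 24 attachment sites (-1.05 ± 0.12), day 18 inter-sites (-1.37 ± 0.1) and day 18 attachment sites (-1.58 ± 0.03), did not overlap.

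Counts over the 5 genes are read against all probes on the array. For day 13 attachment sites over non-pregnant endometrium, 4 of 5 had no overlap and lay above, against 14.3% of all probes. For day 18 over day 13 at attachment sites, 5 of 5 lay wholly below, against 12.6%. These 2 comparisons share the day 13 attachment-site arrays, and the genes were chosen on such differences, so nothing is drawn from the counts. In other comparisons, 1 of 5 lay wholly above for day 13 inter-sites over non-pregnant endometrium (BHMT, against 10.5% of probes). For attachment sites over inter-sites on day 13, 1 of 5 did so (PHGDH, on its representative probe only, against 8.12%). On day 24, 3 of 5 lay wholly below between the sites (BHMT, AHCYL1 and SAT1, against 7.49%), and on day 18 1 of 5 did so (AHCYL1, against 3.07%). For day 24 over day 18, AHCYL1 (1 of 5) lay wholly above at attachment sites (against 15.2%), and BHMT and AHCYL1 (2 of 5) at inter-sites (against 11.5%), where SAT1 lay wholly below (against 6.51%). The BHMT values of days 18 and 24 were at background on all but 1 array, so their order carries little information. For day 18 over day 13 at inter-sites, BHMT and AHCYL1 (2 of 5) lay wholly below (against 5.92%).

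**Figure D2:**
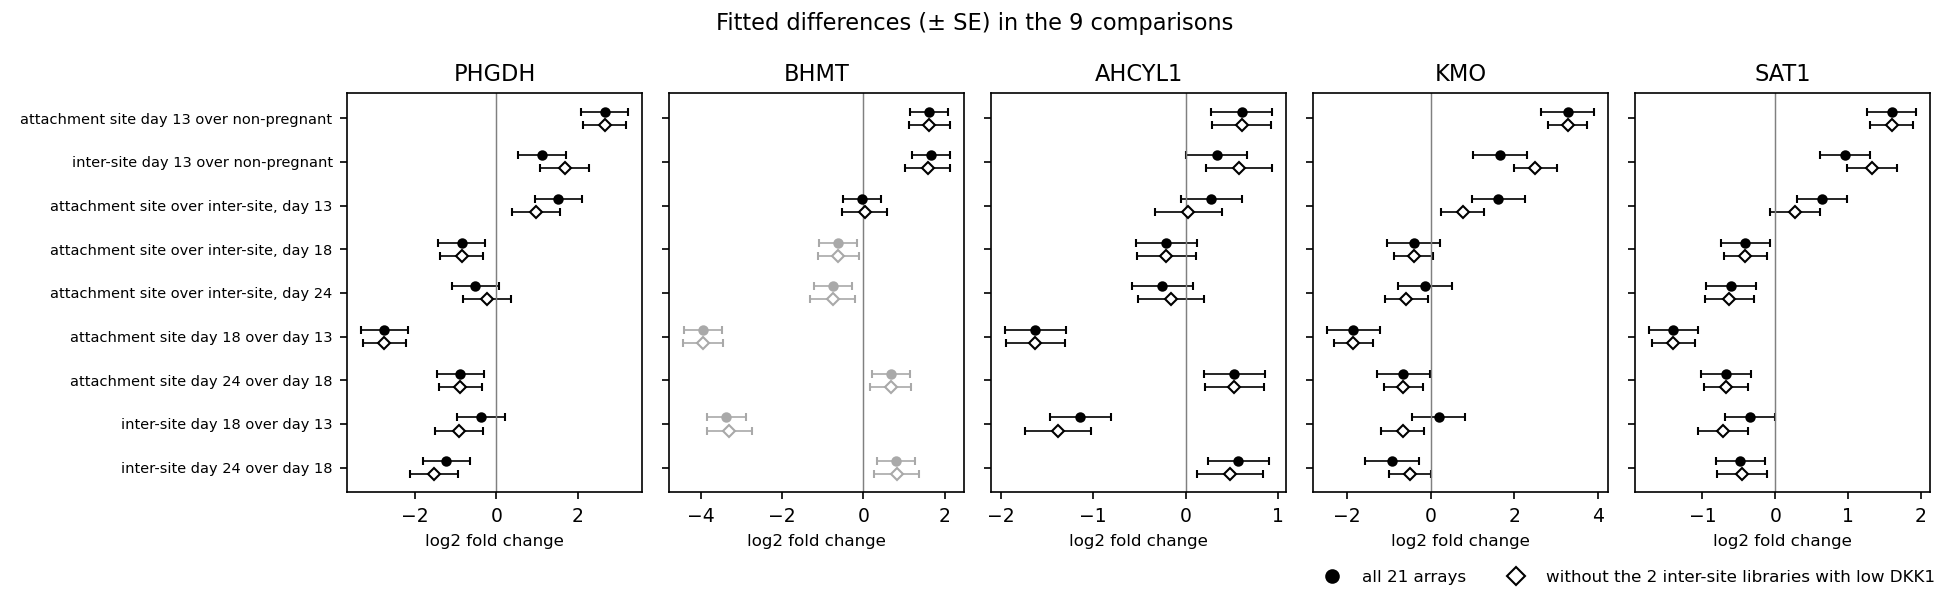
Fitted log2 fold change ± SE of each gene in the 9 comparisons, with all 21 arrays (filled circles) and without the inter-site libraries with low DKK1 (open diamonds); the vertical line marks no difference. Values for day 13 attachment sites over non-pregnant endometrium lie between 0.61 for AHCYL1 and 3.28 for KMO, and those for day 18 over day 13 at attachment sites between -2.74 for PHGDH and -1.4 for SAT1 among the 4 genes above background. The BHMT values that involve day 18 or 24 are drawn in grey, because at least 1 group was at background on 2 or 3 of its 3 arrays.

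The arrays lay on 6 slides, and some comparisons could be made within 1 slide. Day 13 attachment sites exceeded non-pregnant endometrium on slides 1 and 3 by 2.6 and 1.88 for PHGDH. For KMO the same 2 slides gave 3.52 and 2.08, and for SAT1 1.37 and 1.46. BHMT gave 0.84 and 3.29, and AHCYL1 differed in sign, at -0.1 and 1.47. Day 18 over day 13 at attachment sites could be read on slide 3 alone, where PHGDH gave -3.13, AHCYL1 -2.15, KMO -1.34 and SAT1 -1.88. Between the sites on day 13, slide 3 gave 1.15 for PHGDH and 0.53 for SAT1, but -0.01 for KMO. At inter-sites, day 18 over day 13 on slide 6 involved the low-DKK1 library and gave 0.98 for PHGDH, 1.78 for KMO and 0.51 for SAT1, opposite in sign to the values without that library. AHCYL1 gave -0.67 there, of the same sign as without that library. With slide as a block over all arrays, day 13 attachment sites exceeded non-pregnant endometrium by 2.69 (SE 0.58) for PHGDH, 3.18 (SE 0.67) for KMO and 1.49 (SE 0.37) for SAT1.

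SAT1 and PHGDH were each measured by several probes. The 6 SAT1 probes correlated at 0.987 to 0.999 over the 21 arrays, and their differences for day 13 attachment sites over non-pregnant endometrium lay between 1.6 and 1.94. For day 18 over day 13 at attachment sites they lay between -1.78 and -1.4. The other PHGDH probe, A_72_P634609, correlated with the first at 0.901. The 2 PHGDH probes gave 2.65 and 2.97 for day 13 attachment sites over non-pregnant endometrium, and -2.74 and -2.82 for day 18 over day 13. Between the sites on day 13 they gave 1.52 and 1.15, without overlap on the first probe but with overlap on the other. BHMT, AHCYL1 and KMO each had 1 probe, so their values have no such check.

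**Figure D3:**
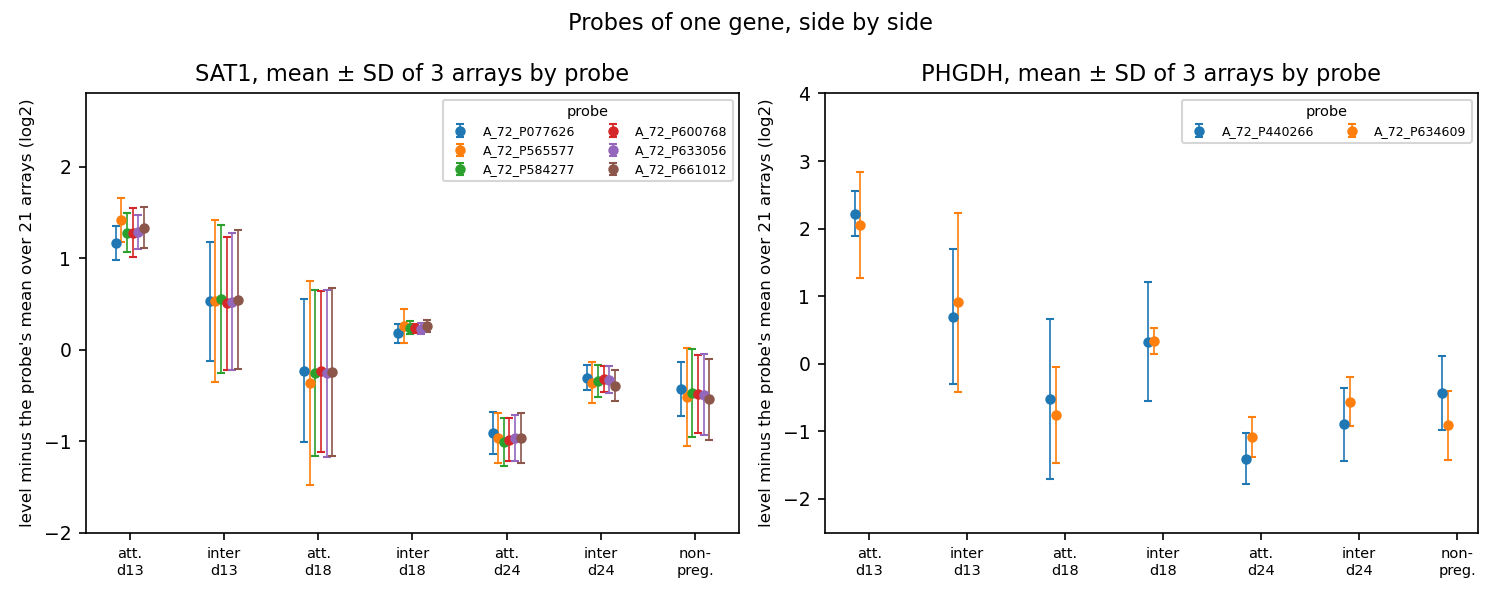
Mean ± SD of 3 arrays by group for the 6 SAT1 probes (left) and the 2 PHGDH probes (right), each probe as log2 level minus its own mean over the 21 arrays. The SAT1 probes lie close together in every group, and the PHGDH probes follow the same order at the top, with day 13 attachment sites highest.

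The levels of the 5 genes were compared over the 21 arrays, which share groups, slides and 2 low-DKK1 libraries, so each correlation describes these arrays only. PHGDH was most like SAT1 (r = 0.922), followed by FBXL4 (0.921), which encodes an F-box protein of mitochondria, and AQP11 (0.916), an aquaporin. SAT1 was most like PHGDH, then FBXL4 (0.918) and TAS1R3 (0.898), a taste receptor subunit. BHMT was most like AHCYL1 (0.817), with KLHDC3 (0.773) and DOK5 (0.745) next, but its probe was above background on 9 of 21 arrays, so most values behind its correlations are background. AHCYL1 was in turn most like BHMT, then BCL2L1 (0.793), an inhibitor of apoptosis, and ARAF (0.776), a kinase. KMO was most like CTGF (0.902), a matricellular growth factor, SST (0.893), the hormone somatostatin, and STC1 (0.844), the hormone stanniocalcin. Among the 5 genes, KMO correlated at 0.79 with SAT1 and 0.719 with PHGDH, but at 0.226 with BHMT and 0.266 with AHCYL1.

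**Figure D4:**
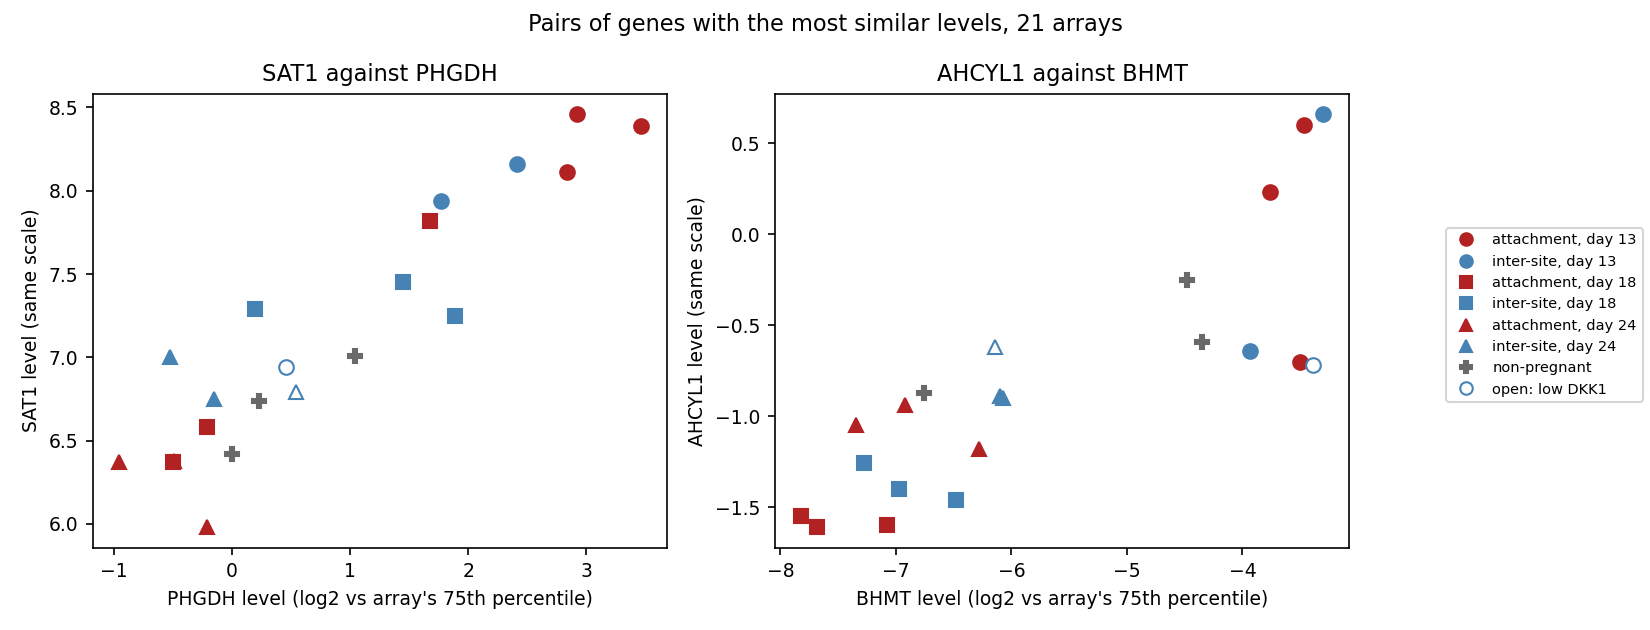
SAT1 level against PHGDH level (left) and AHCYL1 level against BHMT level (right) on the 21 arrays, both axes as log2 signal over the 75th percentile of the array; shapes give the day, colours the site, and open symbols the libraries with low DKK1. SAT1 and PHGDH run along 1 line with day 13 attachment sites at the top (r = 0.922), and in the right panel the day 13 pregnant arrays sit at the high BHMT end (r = 0.817); 12 of the 21 BHMT values are background.

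Other genes of these pathways were read from 5 textbook lists. Of 84 listed symbols 23 were on the array, and 16 other than the 5 genes were tested. Of the folate list 0 were tested, so the one-carbon step between serine and homocysteine was not measured here. None of the 16 passed the threshold of adjusted p under 0.05 for day 13 attachment sites over non-pregnant endometrium (median 0.16 against -0.06 over all probes) in the limma fit, against 1.78% of all probes. At an unadjusted p under 0.05 were 7 of the 16, against 20.2% of all probes. In the serine and glycine list, GNMT, which methylates glycine, read 2.01, 0.93 and -0.61 there, against -2.7, -2.66 and -2.26 in non-pregnant endometrium. These arrays did not overlap, but the difference of 3.32 (SE 0.95) did not pass (limma adjusted p = 0.0721). DLD, a subunit of the glycine cleavage system, differed by -0.07 (SE 0.19).

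In the methionine list, CTH, which makes cysteine from cystathionine, read 3.66, 2.83 and 3.59 at day 13 attachment sites, against 1.75, 1.87 and 0.22 in non-pregnant endometrium (difference 2.08, limma adjusted p = 0.204). AHCY, the hydrolase that AHCYL1 resembles, read 2.79, 2.82 and 3.24, against 4.05, 4.11 and 5.54, a difference of -1.62 with limma adjusted p = 0.075. Both genes kept their groups apart without passing the threshold. The monoamine oxidases MAOA and MAOB, from the tryptophan list, differed by 0.31 and 0.47. In the polyamine list the antizyme gene OAZ3 was widest on the higher side (1.64, limma adjusted p = 0.443). ODC1 was lowest, at -0.12, -0.18 and -0.39 in day 13 attachment sites, against 0.73, 0.5 and 1.25 in non-pregnant endometrium (difference -1.06, limma adjusted p = 0.0707). Without both low-DKK1 libraries, which belong to neither group but enter the shared estimate of spread, AHCY, CTH, GNMT, ODC1 and PEMT (5 of 16) passed in this comparison, where 6.55% of all probes then did.

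The 2 genes of these lists that passed with all arrays were both in the polyamine list, for day 24 over day 18 at attachment sites. That list held 8 of the 16 tested genes, against 4 for methionine and 2 each for serine and tryptophan. Nothing is drawn from both genes being in the largest list. There 2 of 16 passed as higher, against 3.85% of all probes, and the median of the 16 genes was 0.4 against 0 over all probes. ODC1 read 0.53, 1.28 and 1.53 on day 24, against -0.14, -0.18 and -0.63 on day 18. The groups did not overlap, and ODC1 rose by 1.43 (SE 0.3, limma adjusted p = 0.0143). The adjusted p over 30 alternatives ranged from 0.00594 to 0.0839, and the call was lost without day 24 replicate 2 (0.0735) or replicate 3 (0.0839). OAZ2, an antizyme that binds and targets ODC1 for degradation, read 0.24, 0.65 and 0.97 on day 24, against 0.12, -0.67 and -0.94 on day 18. It rose by 1.12 (SE 0.3, limma adjusted p = 0.0376), but 8 of 30 alternatives lost the call, with an adjusted p of up to 0.179.

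SAT1 over the same step read lower by a fitted difference of -0.68 (SE 0.34), with overlap. At inter-sites ODC1 read 0.94, 0.56 and 1.3 on day 24, against -0.21, -0.73 and -0.52 on day 18, with no overlap and a difference of 1.42 that did not pass (limma adjusted p = 0.0636). Without the low-DKK1 libraries it was 1.24 (limma adjusted p = 0.0933). Within slide 2, day 24 attachment sites exceeded day 18 by 1.93 for ODC1 and 1.77 for OAZ2. That slide held only replicate 3 of the day 24 attachment sites, the highest of them for both genes. Without this array both calls were lost (limma adjusted p = 0.0839 for ODC1 and 0.17 for OAZ2), so the slide is not a separate check. In the 8 comparisons other than day 24 over day 18 at attachment sites, limma called 0 of 16. At an unadjusted p under 0.05 were 0 to 7 of 16, against 4.69% to 21.3% of all probes. All probes passed at 0.452% for day 13 inter-sites over non-pregnant endometrium, 0% between sites on day 13 and on day 18, 0.279% between sites on day 24 and 1.8% for day 18 over day 13 at attachment sites. At inter-sites the shares were 0.00665% for day 18 over day 13 and 0.143% for day 24 over day 18.

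**Figure D5:**
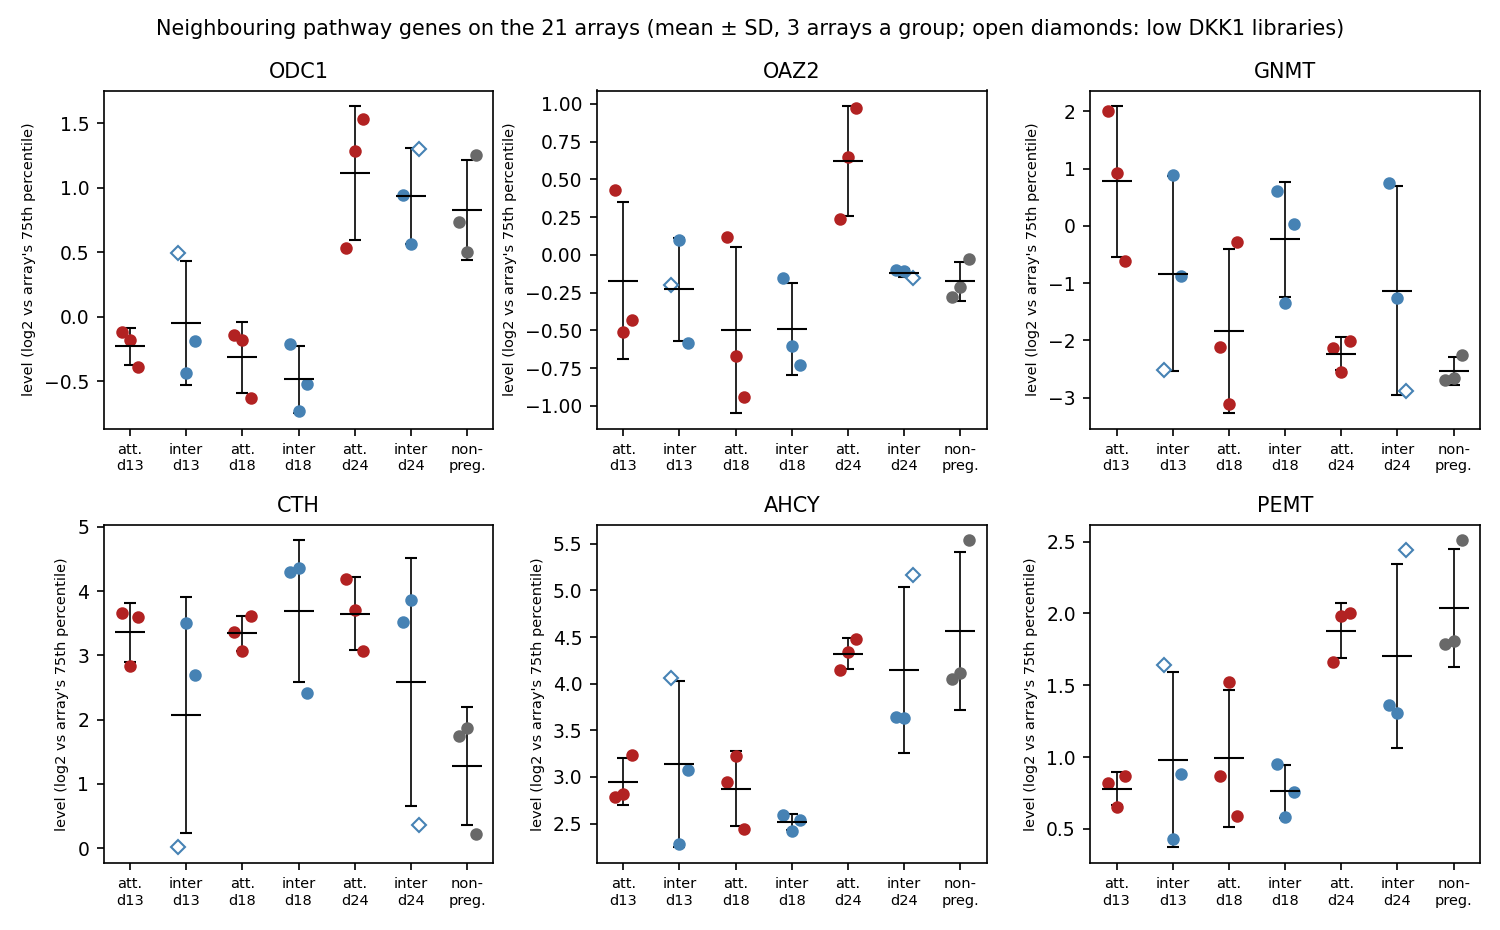
Level of ODC1, OAZ2, GNMT, CTH, AHCY and PEMT on each array by group (log2 over the array's 75th percentile; bars are the mean ± SD of 3 arrays, open diamonds the inter-site libraries with low DKK1). ODC1 at day 24 attachment sites reaches 0.53 to 1.53, above all day 18 arrays, and the low-DKK1 libraries sit with non-pregnant endometrium for CTH and GNMT.

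These are mixed tissues, so more cells of a type and more RNA per cell cannot be told apart. Epithelial markers, 6 of 10 tested, had a summed log2 level of 7.44 to 7.74 at day 13 attachment sites, against 6.51 to 7.63 in non-pregnant endometrium, and 0 of 6 passed. On day 18 the epithelial sum was 6.09 to 7 at attachment sites, below the day 13 arrays. Stromal markers, 2 of 8 tested, summed to 7.3 to 7.64 at day 13 attachment sites, against 7.71 to 8.08 in non-pregnant endometrium. Over the 21 arrays the marker lists correlated with PHGDH at -0.752 (trophoblast) to 0.303 (epithelium), with SAT1 at -0.787 to 0.291 and with KMO at -0.487 to 0.358 for the same 2 lists. The stromal list lay close to the trophoblast list for PHGDH (-0.749) and SAT1 (-0.735). With AHCYL1 the marker lists correlated at -0.551 (T and NK) to 0.195 (epithelium). With BHMT, whose values are mostly background, they correlated at -0.649 to 0.0617 for the same lists as AHCYL1. Smooth muscle markers, 4 of 7 tested, varied within groups. They summed to 5.22, 9.32 and 5.7 at day 13 attachment sites, against 10.38, 10.26 and 5.16 in non-pregnant endometrium, and to 6.38, 10.64 and 8.41 at day 18 attachment sites, and 0 of 4 passed in these comparisons. Macrophages are known to express KMO, and their markers summed to 3.28 to 4.1 at day 13 attachment sites, against 3.11 to 4.75 in non-pregnant endometrium (3 of 8 tested). Of these, CD14 (1 of 3) passed as higher, against 0.838% of all probes. T and NK markers summed to 0.85 to 2.61 at day 18 attachment sites, against -0.75 to 0.06 on day 13. CD2 and CD3D (2 of 7) passed as higher there, against 0.99% of all probes. For day 24 over day 18 at attachment sites, 3.85% of all probes passed as higher and 1.77% as lower. Epithelial markers summed to 7.26 to 7.49 on day 24, against 6.09 to 7 (1 of 6 higher). The median difference was 1.41 for stromal markers (0 of 2) and 0.55 for macrophage markers (1 of 3 higher). It was -1.56 for T and NK markers (1 of 7 lower) and -1.85 for smooth muscle markers (0 of 4). On day 24, trophoblast markers summed to 3.87 to 4.87 at attachment sites, against 2.74 to 4.13 on day 18 (CYP19A3 and GATA3 of 8 higher). Yolk sac and fetal liver markers summed to 7.03 to 8.63, against 4.74 to 8.65 (AFP and SERPINA1 of 7 higher). Non-pregnant endometrium, which holds no conceptus, gave 2.87 to 3.07 and 3.41 to 3.76 for these 2 lists. Neither sum therefore reads conceptus tissue alone. The part of these cell types in the levels of the 5 genes, and of ODC1 and OAZ2, was not tested.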

How the data were processed

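Labelled cRNA of 21 endometrial samples was hybridised to 1-colour Agilent porcine arrays. The authors deposited scanner output of Agilent Feature Extraction with an intensity per spot (10.7.3.1 per the file headers, 10.7 per the submitters' processing notes), background-subtracted within each array per the file headers. The same deposited files give other values, 0 or 1 flags for signal above background and for outlier spots. The authors' deposited table holds log2 values with a median of 5.85 in each column, and 19 of its 21 columns matched their own scanner file best. The columns of day 24 inter-site replicates 2 and 3 each matched the other's file, and the scanner file's number was used. It served as an alternative, and the tool that made it is not given here.

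Of 45220 spots per array, 43803 were not controls. Spots flagged as outliers were left out, and spots of 1 probe were averaged. Each array's processed signal was scaled to its 75th percentile and log2 transformed. The filter asked for a signal well above background on every array of some group, and 30089 probes met it. Symbols were looked up by unversioned RefSeq accession in a pig gene table, with a match for 5461 of 5779 probes. The probe with the highest mean stood for a gene. The 7 group means were fitted in limma 3.58.1 under R 4.3.3 with 14 residual and 2.71 prior degrees of freedom, and adjusted p is Benjamini-Hochberg over all probes within 1 of 9 comparisons. The fit was tested on simulated data with independent noise on every array. That simulation held no slide effect and no libraries that stand apart, so it does not show how far these affect the calls. No spot was saturated, and the number of arrays limits the precision.

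The 5 genes and all lists were chosen with earlier results of these data known. Named genes are the 5 genes with all their probes, the 3 genes most like each, and per pathway list the tested gene with the highest and lowest difference for day 13 attachment sites over non-pregnant endometrium, plus any that passed. PEMT is named beyond that rule, after its values were seen. Alternatives were normexp background correction (on the median spot and background intensity), quantile and median scaling, the authors' table, no filter on dim probes, slide as a fixed or random block, replicate number as a block, leaving out the libraries with low DKK1, and leaving out each array. For the comparisons between sites, the replicate block was day and number together, on the pregnant arrays alone, which pairs sites by number.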

Additional observations from a re-analysis of the deposited data

How the results depend on the processing

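Over 1404 alternative differences of the 5 genes, 1379 moved by less than the spread between replicates and 25 moved by more. Many of the 1379 were fixed in advance. In a fit of group means, leaving out an array of neither group cannot change a difference. Dropping the filter or blocking on replicate number cannot change it either, so the count is not a measure of stability. Counts of probes called moved widely. For day 13 attachment sites over non-pregnant endometrium, 536 probes were called, against 26 with normexp, 182 with no filter on dim probes, 0 with slide as a block, 1971 without both low-DKK1 libraries and 0 to 1301 without 1 array. For day 13 inter-sites, 136 were called, against 0 with normexp, 90 with quantile scaling or the authors' table, 627 with median scaling, 7 with no filter, 0 with slide as a block, 1161 without both low-DKK1 libraries and 0 to 612 without 1 array. For day 18 over day 13 at attachment sites, 541 were called, against 111 with normexp, 205 with no filter, 12 with slide as a block, 954 without both low-DKK1 libraries and 9 to 3730 without 1 array. For day 24 over day 18 at attachment sites, 1691 were called, against 207 with normexp, 392 with slide as a block and 261 to 2029 without 1 array. At inter-sites, day 18 over day 13 called 2, against 5 with median scaling, 0 with normexp, slide as a block, the replicate block or without both low-DKK1 libraries, and 0 to 6 without 1 array. Day 24 over day 18 there called 43, against 6 with normexp, 26 with quantile scaling or the authors' table, 10 with median scaling, 7 with no filter, 1 with slide as a block, 25 with slide as a random block, 19 with the replicate block, 96 without both low-DKK1 libraries and 5 to 126 without 1 array. Between sites, day 13 called 0 (0 to 1 without 1 array, 2441 at an unadjusted p under 0.05). Day 18 called 0 (1 with quantile scaling or the authors' table, 0 to 3 without 1 array). Day 24 called 84 (47 with normexp, 50 with no filter, 22 with slide as a block, 52 with day and number together as a block, 18 without both low-DKK1 libraries, 12 to 309 without 1 array).

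Of the 16 pathway genes, 0 passed for day 13 attachment sites over non-pregnant endometrium (5 without both low-DKK1 libraries, 0 to 4 without 1 array) and 0 for inter-sites (3 without both, 0 to 1 without 1 array). Without both libraries, 6.55% and 3.86% of all probes passed in these 2 comparisons. For day 24 over day 18 at attachment sites 2 passed, where 5.62% of all probes did. The count was 1 with normexp (0.688% of all probes), median scaling (5.09%), slide as a block (1.3%) or no filter (1145 probes). It was 4 with quantile scaling (5.26%), the authors' table (5.27%) or without both low-DKK1 libraries (6.99%), and 0 to 3 without 1 array. The 6 other comparisons called 0 with all arrays and 0 to 1 without 1 array. Median scaling put 253 of 439 calls higher at day 13 attachment sites, where 252 of 536 were higher in the fit reported, and 74 of 627 at day 13 inter-sites, where 43 of 136 were. For inter-sites of day 18 over day 13, 1 of 2 calls was higher with quantile scaling or the authors' table and 2 of 5 with median scaling, against 0 of 2. Normexp moved the median of all probes to -0.26 for day 13 attachment sites over non-pregnant endometrium, against -0.06. The cause of these shifts was not tested. Outside the block of day and number together, the numbers shared by sites were not taken as pairs. Above 0.1 correlated 4 of 9 same-number pairs (-0.107 to 0.49) and 3 of 18 different-number pairs (-0.542 to 0.437), so pairing was not established. BHMT lies near background, which limits its values.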
